A study of Mus musculus with 92 samples.

Results

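Transcripts of 10 AP-1 and immediate early genes were followed through 92 single bone marrow progenitor cells. The genes were named by symbol (Fos, Fosb, Jun, Junb, Jund, Egr1, Ier2, Ier3, Klf6 and Zfp36), and all 10 were found among the 23956 genes of the expression table. No rule on measured values picked them, but earlier results of these data were known when they were chosen. Immediate early genes are transcribed within minutes of a stimulus, without new protein synthesis, by transcription factors that MAP kinase and calcium signals switch on in the resting cell. AP-1 is a dimer of a FOS or JUN family protein with a JUN family protein. EGR1 and KLF6 are zinc finger transcription factors, IER2 and IER3 are further early response products, and ZFP36 binds AU-rich elements and speeds the decay of inflammatory and early response messages. In the marrow, AP-1 and EGR1 are known for roles in monocyte and macrophage differentiation, and the same genes are also known to be switched on by handling of tissue and cells.

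The mice were C57BL/6 with both copies of Gfi1, which codes for a zinc finger transcriptional repressor needed in granulocyte development, in the R412X form (X denotes a stop codon). Cells of both gates shared this genotype, no wild type sample was used here, and no effect of the allele could be read from these cells. Hindlimb bones were crushed straight after death, CD117+ cells (CD117 is the KIT receptor) were pulled out with microbeads, and sorted cells were captured on a Fluidigm C1 chip, per the labels' protocols. Of the cells, 45 were from the GMP gate (GMP commonly stands for granulocyte-monocyte progenitor) and 47 from the CD11b+ GMP-P gate (CD11b is the product of Itgam). The state names are those of the authors' annotation: in GMP 24 Mono, 6 Gran-1, 5 Multi-Lin, 5 MP, 3 cMoP and 2 Gran-2 cells, and in CD11b+ GMP-P 20 Gran-2, 15 Myelo-2, 4 Gran-1, 3 Myelo-1, 3 Myelo-4, 1 Mono and 1 Multi-Lin cell. Neither the age nor the number of mice is stated in the sources used here. Each gate carries its own date code and no animal is named, so each gate was taken as 1 sample without a replicate. Gate, date, capture run and animal therefore cannot be told apart. Cells are not replicates, so no p-value was computed, and ± is the SD over cells.

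The deposited values are log2(TPM + 1), where TPM is a gene's abundance corrected for transcript length and scaled to the same total in each cell. Read depth per cell cannot be recovered from TPM. The number of genes above 0 TPM stands in for it: a median of 5611 (2775 to 6612) in GMP and 4143 (1993 to 5743) in CD11b+ GMP-P. Among GMP states it was lowest in Multi-Lin, with 3069 to 4688 genes against 3700 to 6612 in Mono and 4985 to 6244 in MP. Gfi1 itself was above 0 in 34 of 45 GMP cells and 36 of 47 CD11b+ GMP-P cells, and in 2 of 5 Multi-Lin cells. A stop codon need not remove the transcript, so this level does not check the genotype.

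RefSeq promoters of the GRCm38.p6 build were used for 8 of the 10 members, all but Ier2 and Egr1. Entries on 1 chromosome were left out for the members, but kept in the shares of all promoters below. A member left out need not lack a promoter entry, and the counts of members with a motif do not cover it. Promoter sequence is shown for Fos and for the members among the 8 with the highest correlation to it across GMP cells, Ier3, Zfp36 and Fosb. Egr1, with a rho of 0.66 to Fos, is thus not shown. Each run below is the 150 bases just before the annotated start, 5′ to 3′ on the gene's own strand: Fos at chr12:85473740-85473889 (plus strand), Ier3 at chr17:35821563-35821712 (plus), Zfp36 at chr7:28379229-28379378 (minus) and Fosb at chr7:19310046-19310195 (minus). Capitals mark matches to the motifs named after the runs.
Fos: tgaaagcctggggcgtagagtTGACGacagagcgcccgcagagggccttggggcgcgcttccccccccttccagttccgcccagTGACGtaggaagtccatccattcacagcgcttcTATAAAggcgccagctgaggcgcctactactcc
Ier3: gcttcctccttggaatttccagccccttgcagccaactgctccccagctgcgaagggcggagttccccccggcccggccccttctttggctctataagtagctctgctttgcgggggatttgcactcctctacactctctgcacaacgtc
Zfp36: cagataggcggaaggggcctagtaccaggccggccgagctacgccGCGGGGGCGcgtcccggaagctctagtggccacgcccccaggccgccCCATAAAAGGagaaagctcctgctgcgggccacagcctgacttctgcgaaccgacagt
Fosb: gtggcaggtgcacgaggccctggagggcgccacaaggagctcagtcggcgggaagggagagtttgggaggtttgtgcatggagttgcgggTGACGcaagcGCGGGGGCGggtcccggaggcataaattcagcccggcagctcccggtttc
The motifs were TGACG (the core of the cyclic AMP response element), TGANNTCA and TGANTCA (AP-1 sites with a wider and a narrower spacer), TATAAA (a core promoter element), GCGNGGGCG (bound by the EGR family) and the CArG box, bound by serum response factor. They were chosen after these promoters had been read. All were searched on both strands in the 250 bases before the start, and a TGACG can lie inside a TGANNTCA. Fos held TGACG 129 and 66 bases before its start and TATAAA 33 bases before it. Zfp36 held GCGNGGGCG 105 bases before its start and a CArG box 58 bases before it, and Fosb held TGACG at 60 and GCGNGGGCG at 50 bases. Ier3 held no match to any of the 6 motifs. Of the 8 members, 3 held TGACG, 3 TGANNTCA (Jun, Jund and Klf6), 2 GCGNGGGCG, 1 TATAAA, 1 the CArG box and 0 TGANTCA. Of 32841 promoters of this length, 17.8% held TGACG, 11.9% TGANNTCA, 4.70% GCGNGGGCG, 12.4% TATAAA, 1.47% the CArG box and 6.75% TGANTCA. A match is a run of letters, not a measured binding site.

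The members made up a median of 0.213% of all TPM in a GMP cell (0.000907% to 1.09%) and 0.0889% in a CD11b+ GMP-P cell (0.000308% to 1.01%). A GMP cell had a median of 7 members above 10 TPM and a CD11b+ GMP-P cell 5. Fos, the best known AP-1 subunit, was the most abundant: its median was 909 TPM in GMP (0 to 3642) and 279 TPM in CD11b+ GMP-P (0 to 4693). Fos was detected (above 0 TPM) in 43 of 45 GMP cells (95.6%, exact Clopper-Pearson 95% interval 84.9 to 99.5, counting error only) and in 41 of 47 CD11b+ GMP-P cells (87.2%). The mean log2(TPM + 1) of Fos was 8.32 ± 3.38 over GMP cells and 6.51 ± 3.97 over CD11b+ GMP-P cells. The spread over cells thus exceeded the difference between gates.

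Among the 5 AP-1 genes, Fos supplied 80.3% of the summed TPM in GMP and 80.6% in CD11b+ GMP-P. Jun, the main partner of FOS proteins, supplied 8.12% and 12.2%, and Fosb, the close relative of Fos, 6.51% and 4.63%. Jun was spread more evenly over cells than Fos: it was above 0 in 42 of 45 GMP and 46 of 47 CD11b+ GMP-P cells, with medians of 59.7 and 60.5 TPM. Fosb had medians of 36.4 and 13.7 TPM. Junb, a JUN family member with weaker transactivation than JUN, had medians of 10.7 and 0.96 TPM. Jund, usually described as the steady member of the JUN family, had the lowest mean log2 level of the 10 in both gates (1.2 ± 1.22 and 0.61 ± 1.01), with medians of 1.19 and 0.16 TPM. Fos was the highest of the 5 AP-1 genes in 37 of 45 GMP cells. In CD11b+ GMP-P it was highest in 29 of 47 cells and Jun in 12.

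A FOS family and a JUN family transcript, the 2 kinds of partner in the classic dimer, were both above 10 TPM in 39 of 45 GMP cells and 38 of 47 CD11b+ GMP-P cells. Above 100 TPM both were present in 19 and 11 cells. Egr1 was more often missing: it was above 0 in 36 of 45 GMP cells and 24 of 47 CD11b+ GMP-P cells, with medians of 146 and 0.14 TPM. Fos above 100 TPM came with Egr1 above 100 TPM in 26 GMP cells and without it in 10. In CD11b+ GMP-P cells the counts were 7 with and 23 without. Zfp36 had medians of 180 and 15.3 TPM, Klf6 91.1 and 41.2, Ier2 67.3 and 31, and Ier3 27.2 and 0 TPM.

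**Figure D1:**
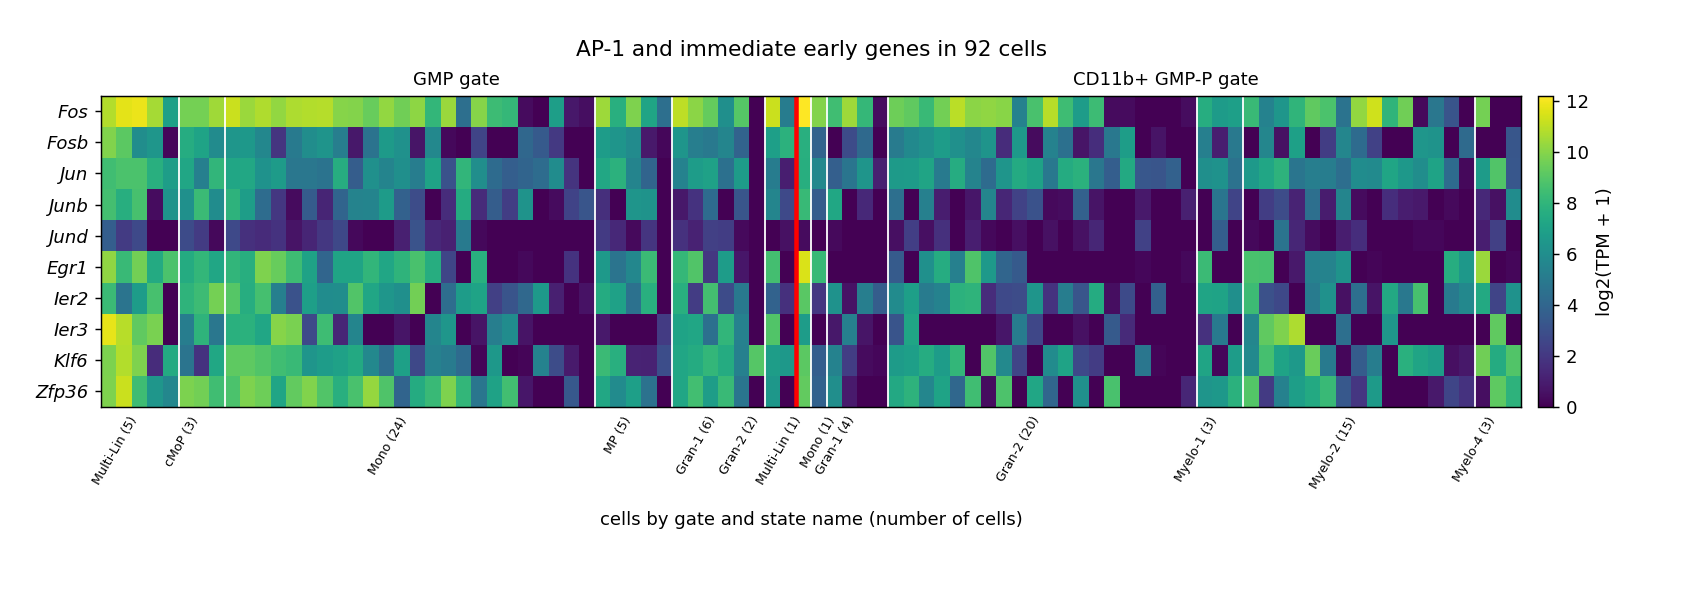
Level of the 10 members (rows, log2(TPM + 1), colour scale) in the 92 cells (columns), grouped by gate (red line) and state name (white lines, number of cells in brackets) and sorted within a state by the mean of the members. Multi-Lin and cMoP cells are bright in most rows, several Mono, Gran and MP cells are dark in nearly all rows, and Egr1 is at 0 in all 4 Gran-1 cells of CD11b+ GMP-P.

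The 5 Multi-Lin cells of the GMP gate included the 3 with the highest mean over the 10 members in that gate, cells 17, 23 and 14, while cells 26 and 35 lay lower. Their mean over the 10 members ran from 4.20 to 9.13 on the log2 scale (median 8.17), against a median of 5.13 in Mono (0.42 to 7.81) and 4.62 in MP (0.96 to 5.87). Fos stood at 3642 TPM in cell 14, 3333 in cell 23, 1783 in cell 17, 1523 in cell 35 and 119 in cell 26. Egr1 stood at 784, 308, 1144, 176 and 424 TPM in the same order of cells. Both genes were above 100 TPM in all 5 cells, and cell 26 was low for Fos but not for Egr1. Jun was at 425, 428, 355, 206 and 108 TPM. Jun was above 100 TPM in 6 of 24 Mono cells and 2 of 5 MP cells, so the states overlapped.

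The other members were uneven among the Multi-Lin cells. Ier3, a survival-associated early response gene, was at 603, 1892, 3476, 864 and 0 TPM in cells 14, 23, 17, 35 and 26. Klf6 was at 907, 1776, 896, 1.97 and 174 TPM. Zfp36 was at 339, 2359, 922, 83.8 and 48.7 TPM. Cells 14, 17 and 23 were thus high for nearly every member, while cells 26 and 35 lacked some. Junb was at 0.31 TPM in cell 35 and between 76 and 399 TPM in the other cells, Fosb at 0.15 TPM in cell 26 and between 63.1 and 939 elsewhere, and Ier2 at 0 in cell 26 and between 24.7 and 403 elsewhere. The single Multi-Lin cell of CD11b+ GMP-P, cell 56, had the highest Fos (4693 TPM) and Egr1 (2903 TPM) of all 92 cells and a mean of 8.18.

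Against MP, 8 of the 10 members were at least 2-fold higher in Multi-Lin and 0 at least 2-fold lower, with a median difference of 3.26 in mean log2(TPM + 1), the scale of all differences and of the 2-fold rule below. Of the 7797 genes compared, 10.9% were at least 2-fold higher and 50.6% at least 2-fold lower, and their median was -1.03. Ier3 differed most, by 7.74 (8.33 ± 4.76 in 5 Multi-Lin cells, 0.59 ± 0.92 in 5 MP cells). In MP it was at 0, 0, 0.76, 0 and 3.32 TPM in cells 10, 15, 24, 30 and 45. All 5 MP cells were thus near 0 for Ier3, and 4 of 5 Multi-Lin cells were at 603 TPM or more. Egr1 differed by 3.80, Klf6 by 3.64, Junb by 3.45, Zfp36 by 3.36, Jun by 3.17, Fos by 2.47 and Fosb by 2.31. Jund (0.56) and Ier2 (0.33) were within 2-fold.

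Against Mono, 8 members were at least 2-fold higher in Multi-Lin and 0 lower, with a median difference of 2.83. Here 9.38% of 8315 genes were at least 2-fold higher and 44.1% lower, and the median of all genes was -0.81. The differences were 4.77 for Ier3, 3.84 for Egr1, 2.99 for Fosb, 2.92 for Jun, 2.84 for Junb, 2.82 for Klf6, 2.37 for Fos and 1.60 for Zfp36. Jund (0.58) and Ier2 (0.40) were again within 2-fold. Multi-Lin minus Gran-1 in the same gate gave 8 members higher and 0 lower (median 2.59), beside 13.6% of genes higher and 41.6% lower; Junb (4.63) and Egr1 (4.45) led, and Jund (0.39) and Klf6 (0.45) were within 2-fold. With equal medians of widely detected genes, all 10 members were at least 2-fold higher in each of these comparisons, beside 23%, 20.9% and 24.3% of genes against MP, Mono and Gran-1. The 3 comparisons share the Multi-Lin cells, so they are not independent of each other. A further comparison, chosen after seeing the data, used only the 3 Mono cells with no more genes detected than the highest Multi-Lin cell. The median was 2.09 there, with 6 members at least 2-fold higher, while Fos was 0.70 higher and Zfp36 0.07. The share of all genes is not given for these few cells, so the 6 is not read as particular to the members.

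The Multi-Lin cells differed from the other GMP cells in other markers too. The mast cell and basophil list was above 0 for 7 of 7 genes, with a summed level of 962 to 13379 TPM against 662 to 1363 in MP and 0.22 to 1613 in Mono. The granulocyte list summed to 106 to 17149 TPM in Multi-Lin, 42648 to 51697 in MP and 18893 to 72806 in Mono. The monocyte list summed to 14.8 to 1324 TPM in Multi-Lin, with Irf8 and Cx3cr1 at 0 in all 5 cells, and 342 to 18336 in Mono. The part of cell type, of fewer detected genes, or of marrow crushing and sorting in the members' level was not tested.

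Further immediate early genes, from a list of 35 genes, were compared in the same way. Against MP, 13 of 21 compared genes were at least 2-fold higher and 3 lower, beside 10.9% and 50.6% of all genes. Dusp2, a nuclear MAP kinase phosphatase, averaged 6.05 in Multi-Lin and 0.82 in MP, Klf2, a Krüppel-like factor, 6.88 and 2.58, Nfkbia, the inhibitor of NF-kappaB, 6.58 and 2.35, and Egr2 3.47 and 0. Against Mono 11 of 25 were higher and 4 lower, beside 9.38% and 44.1% of all genes, with Gadd45b, a stress sensor, at 0 in Multi-Lin and 3.40 in Mono. Of the heat shock genes named in dissociation signatures, 2 of 11 were higher and 4 lower against MP, and 3 and 4 of 11 against Mono. In both cases this was a larger share higher and a smaller share lower than among all genes, though by few genes. Of 12 housekeeping genes, 2 were higher and 4 lower against MP, and 1 and 4 against Mono. The heat shock counts are therefore not read as particular to these genes. Dnajb1, a co-chaperone, averaged 7.0 in Multi-Lin and 4.08 in Mono, whereas Hspd1, the mitochondrial chaperonin, averaged 5.18 and 7.97.

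**Figure D2:**
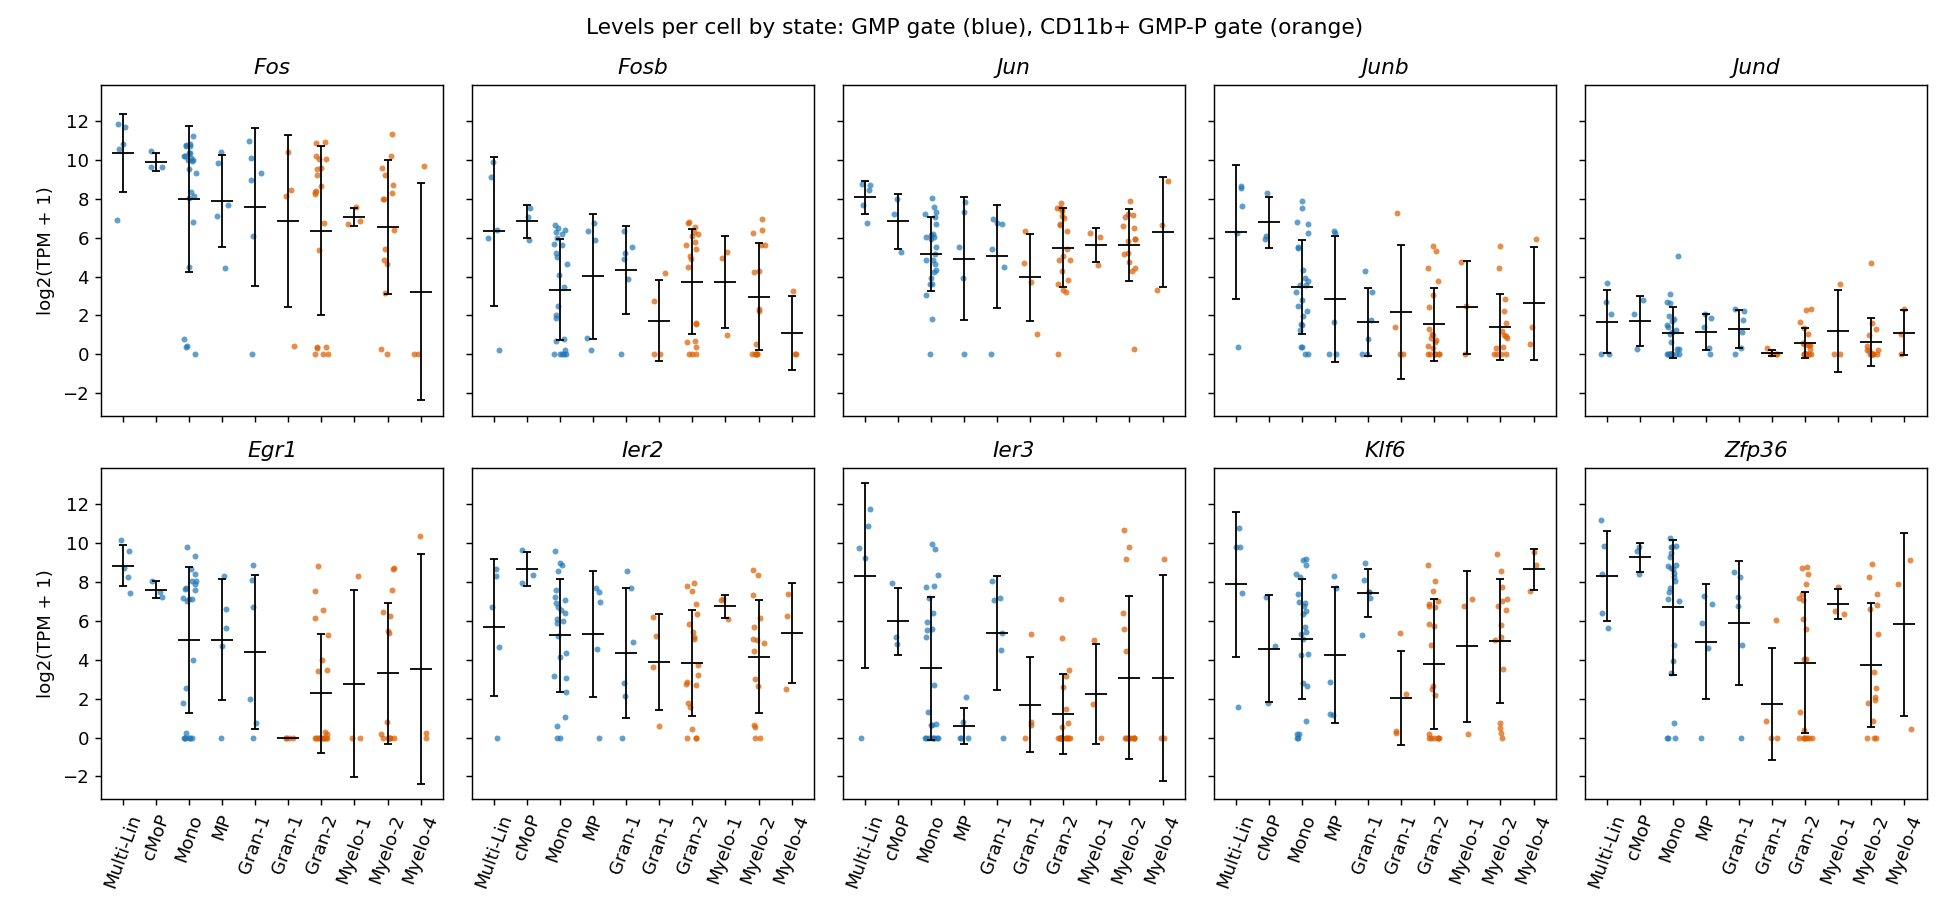
Level of each member, log2(TPM + 1), 1 point a cell, in the states with at least 3 cells of the GMP gate (blue) and the CD11b+ GMP-P gate (orange); black bars give the mean and SD over cells. Multi-Lin cells lie high for Fos, Jun and Egr1, MP cells lie near 0 for Ier3, and every state overlaps with others for nearly every gene.

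The 3 cMoP cells lay close together. Their mean over the members ran from 6.79 to 6.84, and 8 or 9 members were above 10 TPM in each. Fos was at 803, 1390 and 790 TPM in cells 8, 11 and 44, Zfp36 at 766, 347 and 887 TPM and Ier2 at 329, 795 and 247 TPM. By mean log2 level over the 10 states with at least 3 cells, cMoP ranked highest for Fosb, Junb, Jund, Ier2 and Zfp36 and second, after Multi-Lin, for Fos, Jun, Egr1 and Ier3. Klf6 did not follow this order: it was highest in Myelo-4 (8.65 ± 1.04), then Multi-Lin (7.89 ± 3.74) and Gran-1 of GMP (7.44 ± 1.22), with cMoP at 4.58 ± 2.74. Neighbours in these orders lay within the larger of their SDs over cells, except Multi-Lin above cMoP for Egr1 (8.85 ± 1.07 and 7.60 ± 0.44) and cMoP above Myelo-1 for Ier2 (8.65 ± 0.88 and 6.75 ± 0.58).

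MP and Mono cells were close for most members. In MP minus Mono, 0 members were at least 2-fold higher (20.9% of 8553 genes) and 2 lower (13.1% of genes). The lower members were Ier3 (0.59 ± 0.92 against 3.56 ± 3.66, a difference of -2.98) and Zfp36 (4.94 ± 2.95 against 6.70 ± 3.47, -1.76), and Fos differed by -0.10. MP cell 45 decided much of these counts, though not the lower Ier3: at 3.32 TPM it held the most Ier3 of the MP cells. It held Fos at 20.6 TPM and Jun, Egr1, Ier2 and Zfp36 at 0, although 5618 genes were detected in it. Without cell 45, 3 members were at least 2-fold higher and 1 lower, and without cell 10, 1 was higher and 3 lower. The share of all genes is not given for these reduced sets, so the counts show only their dependence on single cells. Of the other immediate early genes 3 of 22 were higher and 9 lower in MP, with Klf4, a monocyte-associated factor, at 0.47 against 4.55.

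The 24 Mono cells of the GMP gate ran from cells at or near 0 for nearly every member to cells with most members high. Fos ran from 0 to 2393 TPM with a median of 992, Zfp36 from 0 to 1228 (median 288) and Egr1 from 0 to 911 (median 138). Ier3 ran from 0 to 997 TPM with a median of 3.46, and was at 0 in 8 of 24 cells. Cells 38, 18 and 42 had the lowest member means (0.42, 1.11 and 1.90) while 5809, 6341 and 6348 genes were detected in them. Cells 19, 36 and 41 had the highest (7.81, 7.47 and 7.24) with 5726, 5264 and 5969 genes. These cells were picked by their member means. Over all 24 Mono cells that mean had a Spearman rho of -0.18 with genes detected. The part of read depth was not tested.

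**Figure D3:**
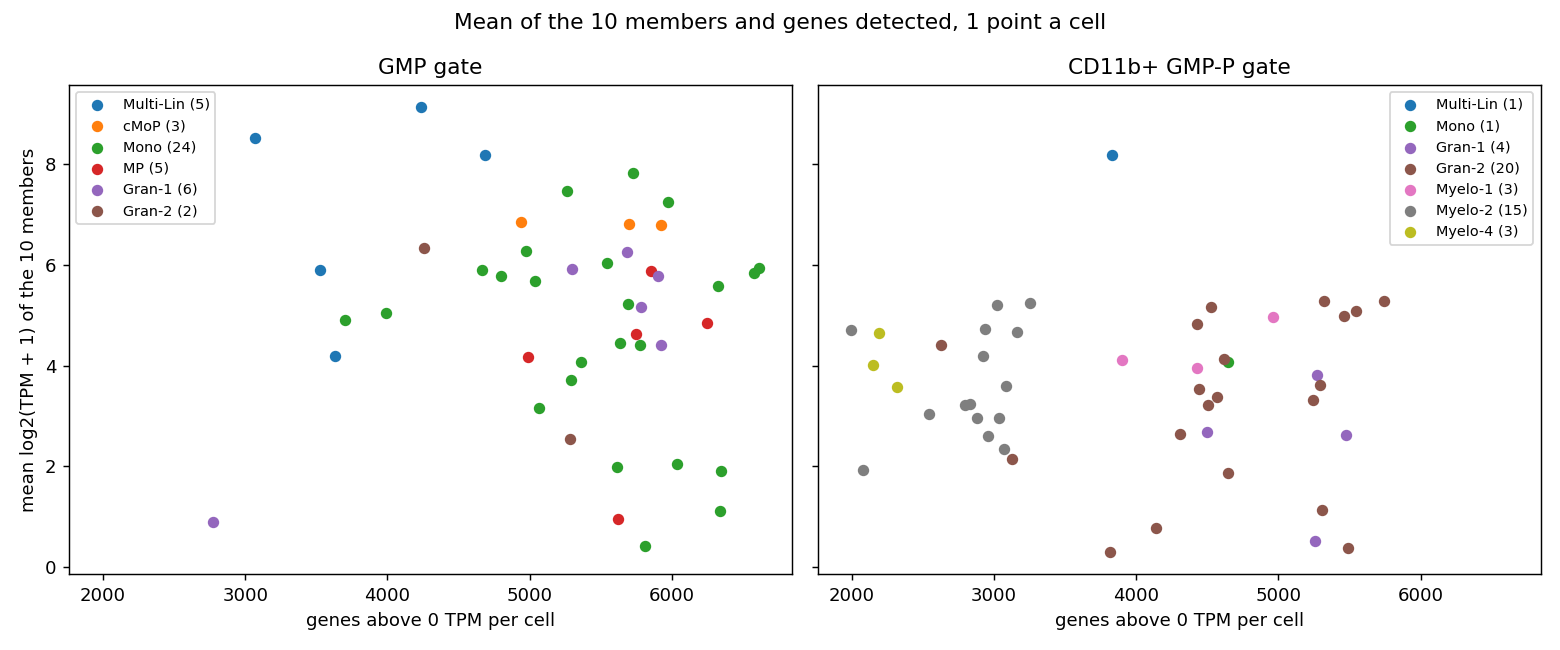
Mean log2(TPM + 1) of the 10 members against the number of genes above 0 TPM, 1 point a cell, coloured by state name, in GMP (left) and CD11b+ GMP-P (right). The members' mean has a Spearman rho of -0.18 with genes detected over 45 GMP cells and 0.04 over 47 CD11b+ GMP-P cells. Within single states of CD11b+ GMP-P it is 0.37 over 20 Gran-2 cells and 0.29 over 15 Myelo-2 cells. Some cells with almost no member transcript appear at high gene numbers (Mono cell 38 at 5809).

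In Gran-1 minus Mono of the GMP gate, 2 members were at least 2-fold higher (13.8% of 8601 genes) and 1 lower (21% of genes). Klf6 was higher by 2.37 and Ier3 by 1.80, and Junb was lower (a difference of -1.79). Klf6 stood at 38.5, 272, 512, 147, 182 and 181 TPM in Gran-1 cells 12, 13, 25, 29, 37 and 40, and was the only member above 0 in cell 25, where 2775 genes were detected. Without cell 25, 4 members were at least 2-fold higher, and leaving out each of the other cells gave 2 to 5 lower. The counts with a cell left out come without the share of all genes in the reduced sets. By log2 of the mean TPM, Ier3 was instead at -0.33. This comparison and the previous one share the Mono cells.

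Gran-1 cells of CD11b+ GMP-P held less of most members than Gran-1 cells of GMP. Klf6 was at 3.66, 0.16, 41.2 and 0.27 TPM in cells 79, 82, 85 and 95, below the 38.5 TPM of the lowest GMP Gran-1 cell except in cell 85. Egr1 was at 0 in all 4 cells (0 of 4, exact Clopper-Pearson 95% upper limit 60.2%) and above 0 in 5 of 6 GMP Gran-1 cells. Zfp36 was at 0.84, 0, 64.4 and 0 TPM, against 0 to 364 TPM (median 129) in GMP. In this comparison 0 members were at least 2-fold higher (23.6% of 9201 genes) and 7 lower (22% of genes), with a median of -1.90 beside 0.05 for all genes. The differences were -5.39 for Klf6, -4.40 for Egr1, -4.19 for Zfp36, -3.67 for Ier3 and -2.58 for Fosb, while Fos was at -0.72 and Junb at 0.49. Btg2 (-5.15) and Klf2 (-3.77) led the other immediate early genes, of which 12 of 22 were lower and 1 higher. The granulocyte list summed to 80088 to 141351 TPM in these cells and 30644 to 70340 in GMP Gran-1 cells.

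Within CD11b+ GMP-P, Gran-1 minus Gran-2 had 0 members at least 2-fold higher (27.8% of 8999 genes) and 5 lower (12.2% of genes). The lower members were Egr1 (-2.29), Zfp36 (-2.12), Fosb (-2.0), Klf6 (-1.74) and Jun (-1.54). Fos differed by 0.49, and the 20 Gran-2 cells ranged from 0 to 1934 TPM for it. Without cell 82, in which Fos was at 0.33 TPM, 3 members were at least 2-fold higher, and without cell 79, 2 were. In the Gran-1 comparison between gates the same omissions gave 2 and 1 higher, and leaving out GMP cell 13 gave 1. Counts with a cell left out have no share of all genes beside them and show only dependence on single cells.

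Myelo-2 and Gran-2 cells were alike in the level of most members, and Ier3, Klf6 and Egr1 averaged higher in Myelo-2. Fos had a median of 250 TPM in the 15 Myelo-2 cells (0 to 2584) and 335 TPM in the 20 Gran-2 cells (0 to 1934), and Jun 60.5 and 61.2 TPM. Both states covered nearly the same range for these genes. In total 3 members were at least 2-fold higher (2.62% of 7334 genes) and 0 lower (51.2% of genes), with a median of 0.14 beside -1.04 for all genes. Ier3 was higher by 1.86, Klf6 by 1.16 and Egr1 by 1.02. Ier3 was above 100 TPM in 3 of 15 Myelo-2 cells, up to 1640 TPM, and in 1 of 20 Gran-2 cells, and its median was 0 in both. The count depends on scaling: with the medians of widely detected genes made equal between cells, all 10 members were at least 2-fold higher (median 2.75), beside 18.9% of genes. The granulocyte list summed to 365003 to 602628 TPM in Myelo-2 and 88859 to 306592 in Gran-2. With TPM rescaled without these genes, 3 members were again at least 2-fold higher and 0 lower, with a median of 0.80 beside -0.95 for all genes, of which 4.39% were higher and 48.3% lower.

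**Figure D4:**
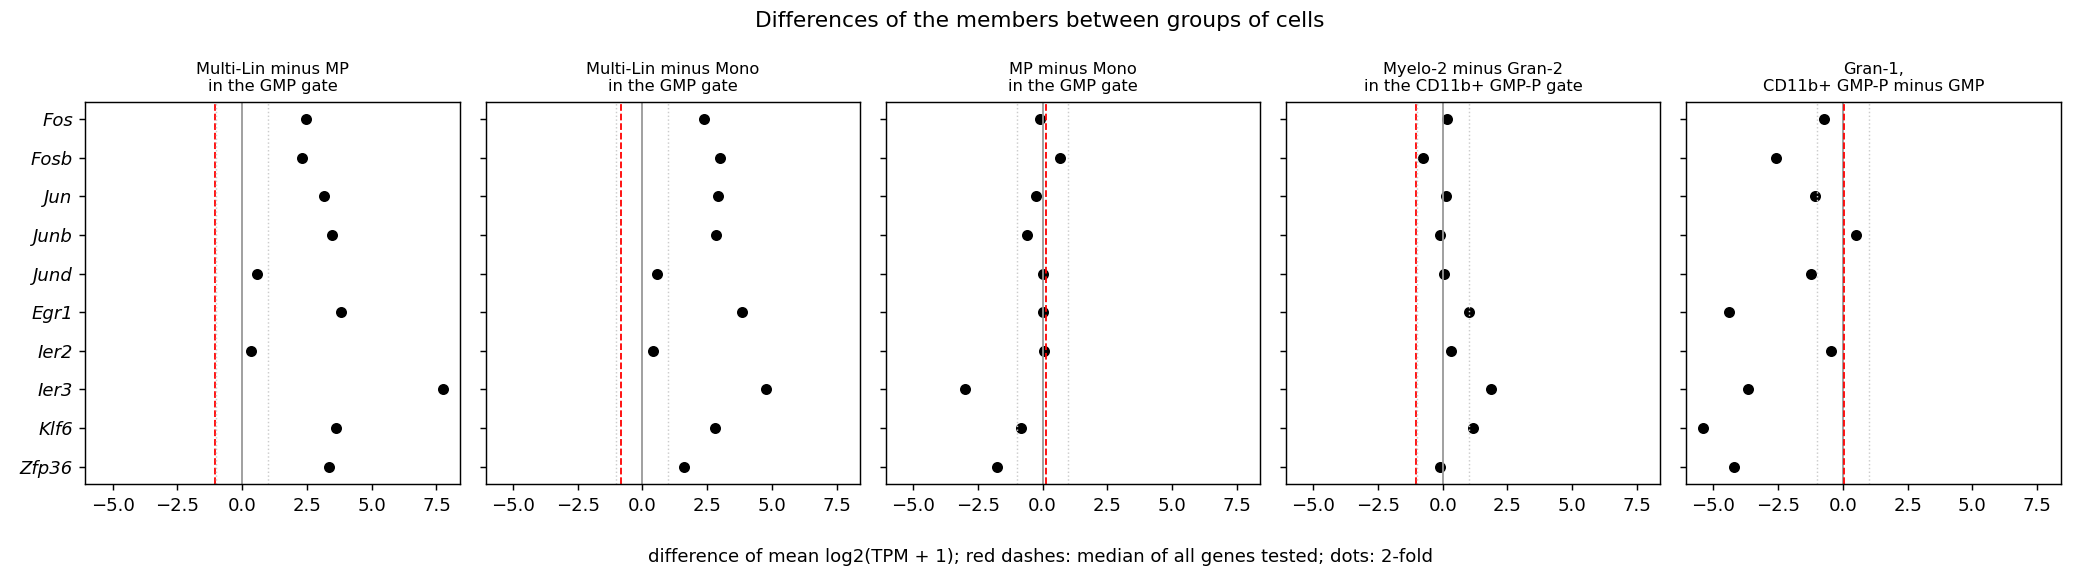
Difference of mean log2(TPM + 1) for each member (black points) in 5 comparisons, with the median of all genes compared (red dashes), no difference (grey line) and 2-fold limits (dots). The members lie above the median of all genes in both Multi-Lin panels, within 2-fold of no difference in MP minus Mono except for Ier3 and Zfp36, and below the median of all genes for most members in the Gran-1 panel.

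Over the whole gates, 0 members averaged 2-fold or more above GMP in the CD11b+ gate (2.72% of 7803 genes were) and 8 averaged 2-fold or more below it (39% of genes), with a median of -1.49 beside -0.74 for all genes. Egr1 (-2.65) and Zfp36 (-2.53) were lowest, and Jun (0.05) and Jund (-0.59) were within 2-fold. With equal medians of widely detected genes the members' median was -0.32 beside -0.36 for all genes, 3 members were lower and 1 higher, beside 24.7% and 9.09% of genes, and Ier2 (0.36) and Klf6 (0.20) turned. In 17 pairs of cells matched on genes detected the members' median was -2.16 beside -0.07 for all genes. The gates held different states, so this difference mixes states with gates.

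The members varied together from cell to cell in the GMP gate. All 45 pairs of members had a Spearman rho above 0 over the 45 cells, with a median of 0.42 (0.11 to 0.69). A rho of at least 0.4 was reached by 29 of the 45 pairs, and by 1.11% of all pairs among the 4886 genes detected in at least 50% of these cells, whose median was 0.05. Fos was at the centre: its rho was 0.69 with Ier3, 0.66 with Egr1, 0.66 with Zfp36 and 0.59 with Fosb. With the mean of the other 9 members, Fos had a rho of 0.82, higher than that of any of the 4886 genes, Zfp36 0.67 and Egr1 0.63, while Junb was the loosest at 0.39. These values are descriptions: the cells share 1 date code, are of several states, and their read depth is unknown. Given the number of genes detected, the median was 0.42, with 30 pairs at 0.4 or above.

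The relation was also present within a single state. In the 24 Mono cells the median rho was 0.44 and 29 of 45 pairs reached 0.4, against 3.69% of all pairs of genes. Fos and Zfp36 had a rho of 0.73 there, Fos and Ier3 0.67, and Ier3 and Klf6 0.67. Over all GMP cells, leaving out the 2 with the lowest mean, cells 38 and 25, left 19 of 45 pairs at 0.4 or above. This choice was made after seeing the data, and the share of all pairs of genes was not computed for the remaining cells.

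In CD11b+ GMP-P the same pairs were looser. The median rho was 0.21 over 47 cells, beside 0.13 for all pairs of genes there, and 40 of the 45 pairs were above 0. A rho of 0.4 was reached by 1 of 45 pairs (Jun and Ier3, 0.44), against 7.27% of all pairs of genes. In the 20 Gran-2 cells 11 pairs reached 0.4 (6.12% of all pairs), led by Fos with Klf6 (0.57), Ier2 (0.51) and Egr1 (0.50), and in the 15 Myelo-2 cells 3 did (8.44%). Without the Myelo states, and with the Multi-Lin cell kept, 15 pairs of the gate reached 0.4. The share of all pairs of genes was not computed for those cells. The difference between the gates was not tested.

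**Figure D5:**
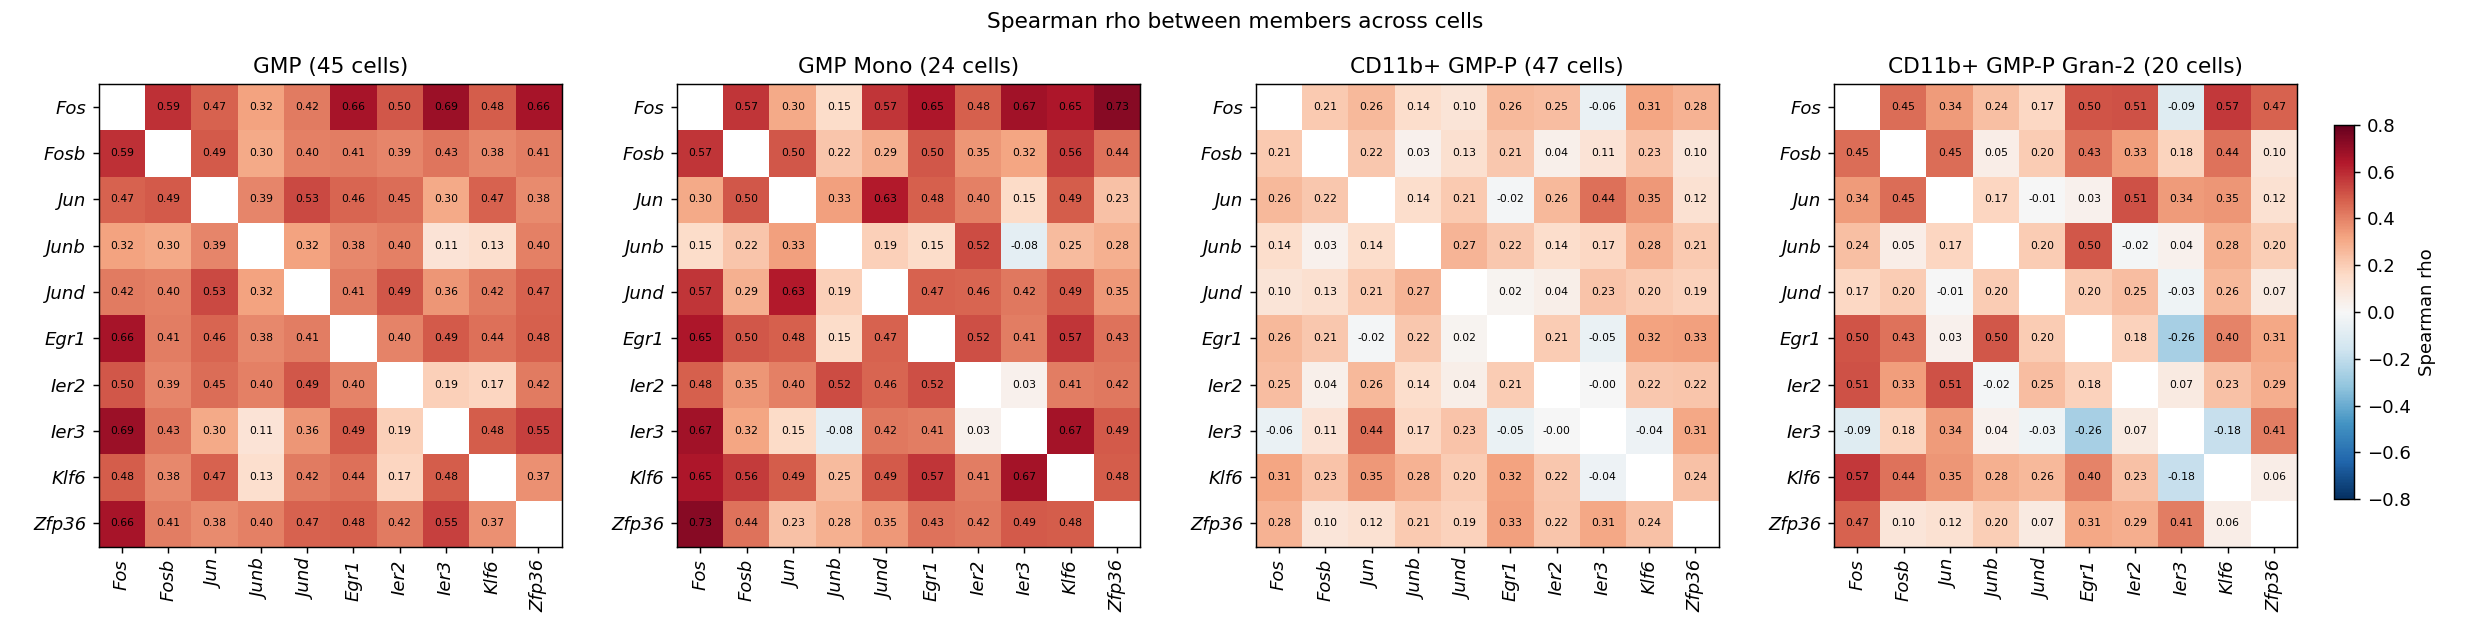
Spearman rho between each pair of members (number and colour) across the cells of GMP, its Mono cells, CD11b+ GMP-P and its Gran-2 cells. The GMP panel is positive throughout, from 0.11 to 0.69, and the CD11b+ GMP-P panel is pale, with 1 pair at 0.44.

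Of the 8 genes outside the 10 that followed their mean most closely in GMP, 3 were in the list of other immediate early genes: Dusp1, Klf2 and Btg2. By Spearman rho over 45 cells the 8 were led by Dusp1, a phosphatase that switches off MAP kinases (0.74), Klf2 (0.67), Rgs2, a brake on G protein signalling (0.65), Btg2, an antiproliferative early gene (0.62), and Dusp6, a further phosphatase of that family (0.61). S100a10 (0.59), Ms4a6c, a gene of the monocyte list (0.56), and the histone gene Hist2h2aa1 (0.54) came next. In all, 40 of 4886 genes reached 0.4, or 0.819%. Genes most like Fos alone were Dusp1 (0.65), Lmo4 (0.58), Btg2 (0.57), Rplp0 (0.57) and Rgs2 (0.55).

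Of the 35 other immediate early genes, 14 were detected in at least 50% of GMP cells and 6 reached 0.4, with Rhob (0.50), Ppp1r15a (0.45) and Btg1 (0.44) beside Dusp1, Klf2 and Btg2. Of the heat shock genes 0 of 7 reached it (median 0.16), with Hspa8 at 0.33 and Hspe1 at -0.31. Among 11 upstream regulators, such as Srf (-0.03), 0 reached it, and among 11 housekeeping genes 0 did (median -0.07). Within the 24 Mono cells 1 of 7 heat shock genes reached 0.4 (Hspa8, 0.64), beside 111 of 5397 genes. In CD11b+ GMP-P the closest gene was the histone gene Hist1h2bc (0.50), followed by Fkbp8 (0.47), Mien1 (0.47), Erich1 (0.45), Limd2 (0.43), Hist1h2bg (0.41), Mrpl43 (0.40) and Usp22 (0.40). Of 3059 genes 7, or 0.229%, reached 0.4, and Usp22 lay just below it. None of these 8 was in the list of immediate early genes. Most like Fos there were Metap2 (0.55), Srsf2 (0.52), Trmt112 (0.50), Eif3l (0.49) and Med28 (0.49).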

How the data were processed

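Single cells were captured on a Fluidigm C1 chip, with SMARTer complementary DNA and Nextera XT libraries, per the labels' protocols. Bowtie2 and RSEM with the mm9 build are named in the submitters' processing notes, with neither version nor settings stated there. The deposited table holds log2 values made by the authors, log2(TPM + 1) for 23956 genes in 92 cells. A second deposited file gives each cell's state name, as the authors assigned it.

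For each group of cells the mean of log2(TPM + 1) was taken, with a pseudocount of 1, and the difference of means was described with a size rule of 2-fold. This scale understates changes of low genes. Genes above 0 TPM in at least 25% of the cells of 1 group were compared, and all 10 members passed in all 9 comparisons. Correlations were Spearman, against all genes above 0 in 50% or more of those cells, with a size rule of 0.4. All 92 cells were kept, and doublets were neither called nor removed. The members, lists, size rules and comparisons were chosen with earlier results of these data known. Named genes were all members, up to 4 genes of a list by absolute difference, and the 8 (or 5, for Fos) most correlated genes. The scripts were tested on simulated data, in Python 3.11.15 with numpy 2.4.6, pandas 2.3.3 and scipy 1.17.1. Alternatives were other pseudocounts, filters and scalings, mean TPM, left-out or matched cells, and Pearson or partial correlation.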

Additional observations from a re-analysis of the deposited data

Results flagged for a closer look

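Of 43 sets of 4 to 10 cells examined for a value far from the rest of its group, 8 had one. The limit used gives about 1 in 20 by chance for independent, normal values. These sets share cells and several hold ties at 0, so the number of sets is not read against that rate. In the 5 Multi-Lin cells of GMP, cell 26 lay far below the others for Fos (6.91 on the log2 scale, others 10.57 to 11.83) and for Ier3 (0, others 9.24 to 11.76). Cell 35 lay far below for Junb (0.39, others 6.27 to 8.64). In the 6 Gran-1 cells of GMP, cell 25 was lowest for Jun (0, others 4.49 to 6.96) and for the mean of the 10 members (0.90, others 4.42 to 6.26). Among the 4 CD11b+ GMP-P cells named Gran-1, cell 79 was highest for Ier3 (5.31, others 0 to 0.78). Cell 85 was highest there for Zfp36 (6.03, others 0 to 0.88) and for Jund (0.32, others 0), which is a level near 0.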

How the results depend on the processing

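Of the values that answer a comparison, under other settings, 343 were counted as kept and 36 as moved. A median counted as kept if it shifted by less than the SD over cells, or over pairs for co-variation. A number of members or pairs counted as kept if it stayed within a set ratio of the main one. These rules are wide, so kept does not mean unchanged. The members' median stayed higher in Multi-Lin than in MP, Mono and Gran-1 under every setting run: leaving out 1 cell at a time gave a median of 2.03 to 3.62, 2.19 to 3.08 and 1.24 to 3.45, with 7 to 10 members at least 2-fold higher, and 1 lower only against MP without MP cell 45. Leaving out 1 cell gave 0 to 3 members higher and 1 to 3 lower for MP minus Mono, 2 to 4 and 1 to 5 for Gran-1 minus Mono, 0 to 3 higher for Gran-1 minus Gran-2, and 0 to 2 higher for Gran-1 between gates. With a pseudocount of 0.1, Gran-1 minus Mono had 2 lower, Myelo-2 minus Gran-2 1 lower and Gran-1 minus Gran-2 1 higher. With a pseudocount of 10, Gran-1 minus Mono had 1 higher and 0 lower, Myelo-2 minus Gran-2 1 higher and the gates 4 lower. By log2 of mean TPM, Gran-1 minus Mono had 0 higher and 2 lower (Ier3 -0.33), Myelo-2 minus Gran-2, Gran-1 minus Gran-2 and Gran-1 between gates 1 higher each, and the gates 5 lower. Without granulocyte genes in the TPM total the gates had 5 lower. With equal medians the gates had 1 higher and 3 lower (Ier2 0.36, Klf6 0.20), and Myelo-2 minus Gran-2 10 higher (median 2.75). Co-variation had 19 pairs in GMP without its 2 lowest cells, 2 in CD11b+ GMP-P by Pearson and 15 without the Myelo states. Counts of members and pairs in this paragraph come without the share of all genes or pairs under the same setting. They show only how far the counts moved. The causes were not tested. Matching Myelo-2 with Gran-2 on genes detected left 2 pairs and was not run. No paired analysis was possible because the gates share no cell or replicate numbers. Depth per cell is unknown, so a 0 cannot be read as absence.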

Other observations

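Genes around the pathway differed between states in their own ways. In Myelo-2 minus Gran-2, 4 of 22 genes from the list of other immediate early genes averaged 2-fold or more higher and 5 lower, beside 2.62% and 51.2% of all genes. Klf2 averaged 5.26 in Myelo-2 and 2.68 in Gran-2, and Dusp1 5.80 and 3.25. Myc, a driver of growth, averaged 0.06 and 3.23, and Ppp1r15a, of the integrated stress response, 0.50 and 3.27. Heat shock genes were lower in 6 of 7, with Hsp90ab1, a cytosolic chaperone, at 2.91 in Myelo-2 and 9.74 in Gran-2. Between the gates, 8 of 20 other immediate early genes and 9 of 10 heat shock genes averaged 2-fold or more lower in CD11b+ GMP-P, beside 39% of all genes. Of 12 housekeeping genes, 9 were 2-fold or more lower in Myelo-2 than in Gran-2, and 9 in CD11b+ GMP-P than in GMP. The lower levels were thus not particular to heat shock genes.

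Atf3, a stress-induced partner of JUN proteins, was at 0 in all CD11b+ GMP-P cells and averaged 1.59 in GMP. Tnfaip3, an NF-kappaB feedback gene, averaged 3.48 in Multi-Lin, 0.41 in Mono and 0 in MP. Of 16 upstream regulators compared in Multi-Lin minus MP, 2 were at least 2-fold higher and 5 lower, beside 10.9% and 50.6% of all genes. Among them Braf, a kinase of the MAP kinase cascade, averaged 0 in Multi-Lin, 3.84 in Mono and 3.92 in MP, and Mapk14, the p38 kinase, 2.40, 5.10 and 5.94.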
